A study of Mus musculus with 12 samples.

Results

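Solute carriers are the membrane proteins that move sugars, amino acids, organic acids, vitamins, drugs and ions across cell membranes, and their genes carry the symbol Slc with a family number and a member number. The genes described here were chosen by symbol from the protein-coding genes with a tested transcript. The bile acid family Slc10, the mitochondrial carriers Slc25, the fatty acid carriers Slc27, the zinc carriers Slc30 and Slc39, and the single genes Slc2a2, Slc7a11, Slc15a2, Slc37a4 and Slc40a1 were left out. The rule found 119 genes among 9486 tested protein-coding genes in the diet table and 109 among 9173 in the db table. Of the 131 genes found in either table, 97 were tested in both. The working name of the set, plasma membrane solute carriers, was only partly met. Many members of the families Slc17, Slc18, Slc33, Slc35 and Slc37 are known mainly from membranes inside the cell. The same holds for single members such as Slc9a7, Slc38a9 and Slc46a3, so the genes are called solute carriers here.

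Liver RNA of 12 mice, 3 per group, was sequenced according to the labels. HFD livers came from wild-type C57BL/6 mice fed a high-fat diet with 54 kJ% fat, 22 kJ% carbohydrate and 24 kJ% protein for 30 weeks, and CD livers from wild-type mice on a control diet with 11 kJ% fat, 62 kJ% carbohydrate and 27 kJ% protein. Livers of db mice carried the Leprdb allele, which removes the signalling form of the leptin receptor throughout the body, and misty livers carried the genotype written Dock7m +/+ Leprdb, both on the control diet. All 4 groups are labelled C57BL/6 and 36 weeks old. The description of the series counts misty among the obese models, while the study's methods use misty mice as the lean counterpart of db mice and give db and misty a younger age, another strain background and another number of mice, so the age, background and number of mice of these 2 groups are not settled. The tables used here hold 1 pooled FPKM value per transcript and group and none per liver. FPKM are fragments scaled to transcript length and to the size of the library, a unit that allows levels of different genes to be set side by side.

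Every difference below therefore compares 2 pooled values and has no replicate check. It is given as the log2 ratio of HFD over CD or of db over misty after adding 0.1 FPKM, and a gene counts as past 2-fold where this ratio is at least 1 or at most -1. The ratio understates differences of weakly expressed genes. The 2 tables were normalized separately and share no mouse, so levels are compared only within a table. In whole liver, fewer cells of a type and less RNA per cell cannot be told apart.

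In hepatocytes, carriers of the sinusoidal membrane take up amino acids, carnitine, organic anions and organic cations from the blood, and carriers of the canalicular membrane pass some of these on to the bile. Uptake carriers such as those of the Slc6, Slc13 and Slc38 families are driven by the sodium gradient that the sodium pump maintains. The Slc22 family holds the organic cation, carnitine and organic anion carriers. In the mouse it includes a cluster of closely related organic anion carrier genes on chromosome 19, whose substrates are poorly known.

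Promoters of 6 solute carriers are printed, chosen with their values known. They belong to Slc13a3 and Slc1a4, which were among the genes past 2-fold in the same direction in both models. The others belong to members of a cluster of paralogs whose values diverged between obese and lean livers. Each runs from 250 bases before to 50 bases after the RefSeq start of the gene in GRCm38.p6, written 5' to 3' on the gene's own strand. Of the 131 members, 99 had an entry in this table. Capitals in Slc22a26 mark a match to TTCNNNGAA, the palindrome of STAT factors. In Slc13a3 they mark TGACNNNGC, the core of the antioxidant response element, and in Slc1a4 a match to TGATGNAA, the core of the element bound by ATF4, read on the opposite strand. In Slc22a28, Slc22a29 and Slc22a30 they mark the longest run shared by these 3 promoters, 22 bases.
Slc22a26, chr19:7802618-7802917, minus strand: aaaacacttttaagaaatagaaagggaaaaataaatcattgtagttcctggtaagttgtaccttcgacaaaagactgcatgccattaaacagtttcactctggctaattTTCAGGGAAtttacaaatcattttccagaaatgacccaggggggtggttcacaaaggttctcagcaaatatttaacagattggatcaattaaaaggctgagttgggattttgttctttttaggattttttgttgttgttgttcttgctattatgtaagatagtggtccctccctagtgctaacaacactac
Slc22a28, chr19:8131933-8132232, minus strand: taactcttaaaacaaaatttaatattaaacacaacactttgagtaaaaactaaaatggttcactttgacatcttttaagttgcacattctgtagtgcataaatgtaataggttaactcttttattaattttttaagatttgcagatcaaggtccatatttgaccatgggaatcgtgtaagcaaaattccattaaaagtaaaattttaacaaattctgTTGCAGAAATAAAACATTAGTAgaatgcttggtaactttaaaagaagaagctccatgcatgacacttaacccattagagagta
Slc22a29, chr19:8218851-8219150, minus strand: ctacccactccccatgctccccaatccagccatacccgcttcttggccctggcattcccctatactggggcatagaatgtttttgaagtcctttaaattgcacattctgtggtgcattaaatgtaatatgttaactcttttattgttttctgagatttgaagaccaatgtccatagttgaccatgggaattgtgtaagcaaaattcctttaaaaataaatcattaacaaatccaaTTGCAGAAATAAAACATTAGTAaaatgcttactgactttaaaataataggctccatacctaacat
Slc22a30, chr19:8405056-8405355, minus strand: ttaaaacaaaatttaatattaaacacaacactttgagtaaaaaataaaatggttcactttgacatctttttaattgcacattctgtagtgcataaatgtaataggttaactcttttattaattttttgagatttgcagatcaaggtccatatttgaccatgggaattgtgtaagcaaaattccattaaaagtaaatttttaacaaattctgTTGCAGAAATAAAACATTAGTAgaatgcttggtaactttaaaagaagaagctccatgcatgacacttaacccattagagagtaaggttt
Slc13a3, chr2:165473148-165473447, minus strand: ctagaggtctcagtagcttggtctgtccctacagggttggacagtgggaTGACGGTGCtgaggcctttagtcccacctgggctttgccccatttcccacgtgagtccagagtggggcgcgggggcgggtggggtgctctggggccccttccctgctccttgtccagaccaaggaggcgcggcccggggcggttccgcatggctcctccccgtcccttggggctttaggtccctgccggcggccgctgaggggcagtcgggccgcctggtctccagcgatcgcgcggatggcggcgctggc
Slc1a4, chr11:20332664-20332963, minus strand: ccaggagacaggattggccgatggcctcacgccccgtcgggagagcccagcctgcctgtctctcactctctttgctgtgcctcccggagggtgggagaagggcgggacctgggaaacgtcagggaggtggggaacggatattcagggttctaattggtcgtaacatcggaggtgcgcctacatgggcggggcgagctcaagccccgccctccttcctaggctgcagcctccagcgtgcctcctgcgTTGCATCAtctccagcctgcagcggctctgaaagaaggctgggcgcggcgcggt
The promoters of Slc22a28 and Slc22a30 were identical at 94.1% of 306 aligned positions. Slc22a29 was identical to Slc22a28 at 68.0% and to Slc22a30 at 66.5%, and Slc22a26 was less alike, at 50% with Slc22a28. Searched on both strands over 32851 promoters of the same length, TTCNNNGAA was present in 8.3%, TGACNNNGC in 12.4% and TGATGNAA in 3.97%, so all 3 are common and a match is only a description of the letters. The match in Slc22a26 began 141 bases before the start, that in Slc13a3 201 bases and that in Slc1a4 4 bases before it. Promoters of Slc22a27, Slc44a3, Slc16a1, Slc22a5 and Slc5a6 were searched as well and are not printed. TGACNNNGC also matched in Slc16a1, a gene lower in both models, 207 bases before the start, and in Slc22a27, 161 and 11 bases before it. Slc44a3 and Slc5a6, also past 2-fold in the same direction in both models, and Slc22a5 had no match.

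Most solute carriers were weakly expressed, and a few carried most of the signal. For the diet comparison 69 of the 119 genes reached 1 FPKM in the higher group and 10 reached 10 FPKM. In the db table these counts were 63 and 9 of 109. The 10 most abundant genes held 64.8% of the summed level of all members in HFD livers and 64.3% in CD livers, and 63.5% in db livers and 62.5% in misty livers.

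Slc6a13, a sodium-dependent carrier of GABA and taurine, was among the most abundant members of both tables, with 65.1 FPKM in HFD livers and 60.8 FPKM in CD livers. In db livers it had 71.1 FPKM, against 62.7 FPKM in misty livers, so its level was within 1.5-fold between obese and lean livers in both models.

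The other abundant members included Slc47a1, the proton-coupled exporter MATE1 of the canalicular membrane, and Slc16a7, the monocarboxylate carrier MCT2. Slc47a1 had 22.5 FPKM in HFD livers and 18.6 FPKM in CD livers, but 29.3 FPKM in db livers against 7.65 FPKM in misty livers (log2 ratio 1.92). Slc16a7 had 22.1 FPKM in HFD livers and 17.8 FPKM in CD livers, and 23.9 FPKM in db livers against 11.1 FPKM in misty livers (log2 ratio 1.10). Both were past 2-fold in db livers and within 1.5-fold in HFD livers, and whether the 2 differences differ could not be tested.

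**Figure D1:**
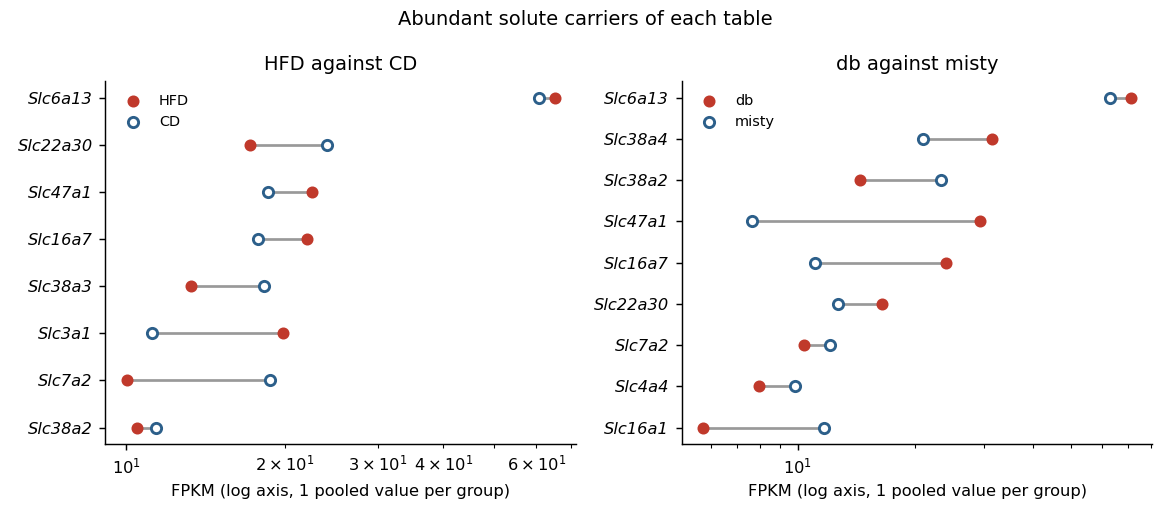
FPKM (log axis) of abundant solute carriers of each table, in HFD and CD livers (left, 8 genes) and db and misty livers (right, 9 genes), with 1 point per group standing for the authors' pooled value and no error available. Slc6a13 leads both panels with nearly overlapping points, while Slc47a1 in the right panel spans 29.3 FPKM in db livers and 7.65 FPKM in misty livers.

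In HFD livers 13 of the 119 members, 10.9%, were at least 2-fold higher than in CD livers, against 6.66% of all tested genes, and 4 members, 3.36%, were at least 2-fold lower, against 2.46% of all tested genes. The remaining 102 lay within 2-fold and 79 within 1.5-fold. The median log2 ratio of the members was 0.027, against -0.00098 over all tested genes. The quartiles of the members ran from -0.25 to 0.55 and those of all genes from -0.21 to 0.30, a spread that reached further up among the solute carriers. With 1 FPKM added in place of 0.1, 0.84% of the members were at least 2-fold higher, against 1.38% of all genes, and the larger share among members was lost.

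In db livers 15 of the 109 members, 13.8%, were at least 2-fold higher than in misty livers, against 7.36% of all tested genes, and 10 members, 9.17%, were at least 2-fold lower, against 4.68%. The remaining 84 lay within 2-fold and 68 within 1.5-fold. The median log2 ratio was 0.12, against 0.018 over all tested genes. The summed level of the members was 439 FPKM in db livers and 350 FPKM in misty livers, whereas HFD livers summed to 511 FPKM and CD livers to 520 FPKM. Among members whose higher group reached 1 FPKM, 12 of 63, or 19.0%, were at least 2-fold higher in db livers, against 7.76% of all genes under the same minimum, and 3, or 4.76%, were at least 2-fold lower, against 4.66%, so the share of lower genes was then at the level of all genes. In HFD livers 9 of 69, or 13.0%, were higher, against 5.63%, and 3, or 4.35%, were lower, against 2.22%.

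**Figure D2:**
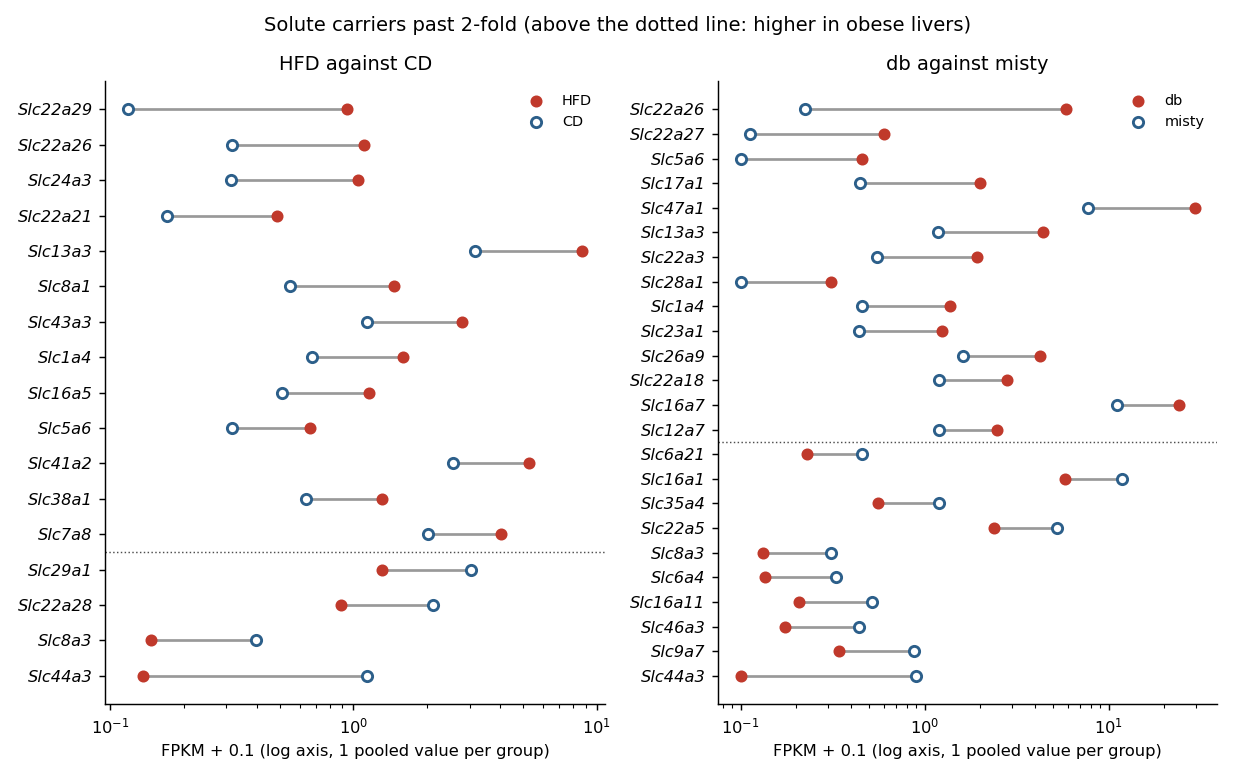
FPKM + 0.1 (log axis) of solute carriers past 2-fold, in HFD and CD livers (left, 17 genes) and db and misty livers (right, 24 genes), with filled points for obese and open points for lean livers, 1 pooled value per group and no error available. Genes above the dotted line were higher in obese livers, 13 in the left panel and 14 in the right, and the widest gap is that of Slc22a26 in db livers.

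Among the organic anion and cation carriers, 3 of 15 genes were at least 2-fold higher and 1 lower in HFD livers (median log2 ratio 0.025). In db livers 5 of 13 were higher and 1 lower (median 0.37), and their summed level was 131 FPKM, against 78.3 FPKM in misty livers. Over all tested genes 6.66% were at least 2-fold higher and 2.46% lower in HFD livers, and 7.36% and 4.68% in db livers. Slc22a3, the organic cation carrier OCT3, had 1.82 FPKM in db livers against 0.454 FPKM in misty livers (log2 ratio 1.79). In HFD livers it stood at 6.95 FPKM, against 8.97 FPKM in CD livers. Slc22a18, an imprinted gene of the family, had 2.69 FPKM in db livers and 1.09 FPKM in misty livers (log2 ratio 1.23). Slc22a5, the carnitine carrier OCTN2, had 2.27 FPKM in db livers against 5.13 FPKM in misty livers (log2 ratio -1.14) and 2.50 FPKM in HFD livers against 4.25 FPKM in CD livers (log2 ratio -0.74). Summed over its transcripts, the ratio of Slc22a5 in db livers was -0.62, inside 2-fold. Slc22a7, the organic anion carrier OAT2, lay just inside the limit with 4.88 FPKM in HFD livers and 9.65 FPKM in CD livers (log2 ratio -0.97).

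The organic anion carriers clustered on chromosome 19 diverged most. Slc22a26 (chr19:7781041-7802667) had 5.80 FPKM in db livers against 0.124 FPKM in misty livers, a log2 ratio of 4.72 and the highest of all members. In HFD livers it had 1.00 FPKM, against 0.217 FPKM in CD livers (log2 ratio 1.80). Its neighbour Slc22a27 (chr19:7864388-7966027) stayed under 1 FPKM, with 0.503 FPKM in db livers against 0.012 FPKM in misty livers and 0.229 FPKM in HFD livers against 0.0662 FPKM in CD livers, read from different transcripts in the 2 tables. Obese livers thus had the higher value of both genes in both models.

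The next 3 genes of the cluster did not share that pattern. Slc22a28 (chr19:8062209-8131982) had 0.792 FPKM in HFD livers against 2.02 FPKM in CD livers (log2 ratio -1.25), and 0.316 FPKM in db livers against 0.45 FPKM in misty livers (log2 ratio -0.40). Slc22a29 (chr19:8160165-8218900) had 0.841 FPKM in HFD livers against 0.0184 FPKM in CD livers (log2 ratio 2.99), while db livers had 1.31 FPKM and misty livers 1.19 FPKM. Slc22a30 (chr19:8335371-8405111), the most abundant of the cluster, had 17.2 FPKM in HFD livers and 24.0 FPKM in CD livers, and 16.4 FPKM in db livers and 12.7 FPKM in misty livers. Slc22a28 and Slc22a30, whose printed promoters are the most alike, had log2 ratios of -1.25 and -0.48 in HFD livers, but of -0.40 and 0.37 in db livers. These genes are close paralogs, so reads could be split between them and their separate values are uncertain.

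In HFD livers 4 of the 22 genes of the Slc1, Slc3, Slc7, Slc36, Slc38 and Slc43 families were at least 2-fold higher and 0 lower, with a median log2 ratio of 0.22. The shares of all tested genes were 6.66% and 2.46% there, and 7.36% and 4.68% in db livers. Slc1a4, the neutral amino acid carrier ASCT1, had 1.5 FPKM in HFD livers against 0.573 FPKM in CD livers (log2 ratio 1.25) and 1.27 FPKM in db livers against 0.358 FPKM in misty livers (log2 ratio 1.58), and was the only gene of these families past 2-fold in db livers. Slc38a1, the glutamine carrier SNAT1, had 1.21 FPKM in HFD livers and 0.54 FPKM in CD livers (log2 ratio 1.03). Slc7a8, the exchanger LAT2, had 3.94 FPKM in HFD livers and 1.92 FPKM in CD livers (log2 ratio 1.00), and equal values of 0.743 FPKM in db and misty livers. Slc43a3, a gene of an amino acid family whose product carries purine nucleobases, had 2.69 FPKM in HFD livers and 1.04 FPKM in CD livers (log2 ratio 1.29). Summed over transcripts, Slc7a8 and Slc43a3 came to 0.96 and 0.75, inside 2-fold, while Slc38a4 and Slc43a1 were past 2-fold lower in HFD livers, at -1.28 and -1.17.

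Other amino acid carriers, among them the abundant ones, lay within 2-fold in the transcripts compared. Slc7a2, the carrier CAT2 of arginine and other cationic amino acids, had 10.03 FPKM in HFD livers against 18.8 FPKM in CD livers (log2 ratio -0.90) and 10.4 FPKM in db livers against 12.1 FPKM in misty livers. Slc3a1, the heavy subunit of a cystine and dibasic amino acid exchanger, had 19.8 FPKM in HFD livers and 11.2 FPKM in CD livers (log2 ratio 0.82). Slc38a3, the glutamine carrier SNAT3, had 13.3 FPKM in HFD livers and 18.3 FPKM in CD livers. Of the alanine and glutamine carriers, Slc38a2 had 14.4 FPKM in db livers and 23.3 FPKM in misty livers (log2 ratio -0.69), and Slc38a4 31.4 FPKM in db livers and 20.9 FPKM in misty livers (log2 ratio 0.58). In HFD livers the tested transcript of Slc38a4, another than in the db table, had 2.79 FPKM, against 5.34 FPKM in CD livers (log2 ratio -0.91). Summed over its transcripts, Slc38a4 had 3.77 FPKM in HFD livers against 9.31 FPKM in CD livers, a log2 ratio of -1.28, which is past 2-fold. Of the Slc6 genes, 0 of 6 passed 2-fold in HFD livers, and 2 of 5 were lower in db livers, both read from retained-intron transcripts. Among all tested genes 4.68% were at least 2-fold lower in db livers. Slc6a4, the serotonin carrier, had 0.0362 FPKM in db livers and 0.231 FPKM in misty livers, and Slc6a21 had 0.128 FPKM in db livers and 0.359 FPKM in misty livers.

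Among the carriers of monocarboxylates, dicarboxylates and sulfate, 2 of 18 genes were at least 2-fold higher and 0 lower in HFD livers (median log2 ratio 0.083). In db livers 3 of 16 were higher and 2 lower (median 0.39). Over all tested genes 6.66% were higher and 2.46% lower in HFD livers, and 7.36% and 4.68% in db livers. Slc13a3, the sodium-dependent dicarboxylate carrier NaDC3, had 8.62 FPKM in HFD livers against 3.05 FPKM in CD livers (log2 ratio 1.47) and 4.31 FPKM in db livers against 1.07 FPKM in misty livers (log2 ratio 1.91). With an addition of 1 FPKM in place of 0.1, it was the only member that stayed past 2-fold in HFD livers, and 1 of 6 in db livers. Slc16a1, the lactate and ketone body carrier MCT1, had 5.14 FPKM in HFD livers against 9.74 FPKM in CD livers (log2 ratio -0.91) and 5.73 FPKM in db livers against 11.7 FPKM in misty livers (log2 ratio -1.01). Its relative Slc16a7 went the other way in db livers, as given above. Slc16a5, the carrier MCT6, had 1.06 FPKM in HFD livers and 0.41 FPKM in CD livers (log2 ratio 1.19). Slc26a9, an anion carrier, had 4.16 FPKM in db livers and 1.51 FPKM in misty livers (log2 ratio 1.41).

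No sugar carrier of the set passed 2-fold in either model, among 5 genes in the diet table and 7 in the db table. Slc2a2 was left out of the set, so these counts do not cover it. Over all tested genes 6.66% were higher and 2.46% lower in HFD livers, and 7.36% and 4.68% in db livers. Slc2a5, the fructose carrier GLUT5, was the most abundant of these remaining sugar carriers. It had 0.967 FPKM in HFD livers against 1.66 FPKM in CD livers and 0.875 FPKM in db livers against 1.34 FPKM in misty livers. Of the sodium-coupled Slc5 genes, Slc5a3, the myo-inositol carrier, had 0.945 FPKM in HFD livers and 1.13 FPKM in CD livers. Slc5a6, the carrier SMVT of biotin and pantothenate, had 0.564 FPKM in HFD livers against 0.216 FPKM in CD livers (log2 ratio 1.07) and 0.358 FPKM in db livers, where misty livers were at practically 0, so no fold is given.

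The lowest ratio among the members in the diet table was that of a gene in the vitamin and choline group. Slc44a3, a choline-transporter-like gene, had 0.0357 FPKM in HFD livers against 1.04 FPKM in CD livers (log2 ratio -3.07). In db livers it was at practically 0, against 0.796 FPKM in misty livers, read from another transcript that is annotated as non-coding. Slc29a1, the nucleoside carrier ENT1, had 1.21 FPKM in HFD livers against 2.93 FPKM in CD livers (log2 ratio -1.21) and 1.69 FPKM in db livers against 2.24 FPKM in misty livers. Slc23a1, the ascorbate carrier SVCT1, had 1.14 FPKM in db livers and 0.342 FPKM in misty livers (log2 ratio 1.49), while HFD livers had 2.58 FPKM and CD livers 2.73 FPKM. Slc19a2, a thiamine carrier and the most abundant of the group, had 4.98 FPKM in HFD livers against 7.58 FPKM in CD livers, and 6.88 FPKM in db livers and 6.89 FPKM in misty livers.

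Among carriers of inorganic ions, 3 of 20 genes were at least 2-fold higher and 1 lower in HFD livers, and 2 of 23 higher and 2 lower in db livers. The shares of all tested genes were 6.66% higher and 2.46% lower in HFD livers, and 7.36% and 4.68% in db livers. Slc8a1, the sodium-calcium exchanger NCX1, had 1.37 FPKM in HFD livers against 0.448 FPKM in CD livers (log2 ratio 1.42) and 1.38 FPKM in db livers against 1.69 FPKM in misty livers. Slc41a2, a magnesium carrier, had 5.15 FPKM in HFD livers against 2.46 FPKM in CD livers (log2 ratio 1.04) and 4.83 FPKM in db livers against 2.51 FPKM in misty livers (log2 ratio 0.92). Its ratio over summed transcripts in HFD livers was 0.92. Slc12a7, the potassium-chloride cotransporter KCC4, had 2.37 FPKM in db livers and 1.09 FPKM in misty livers (log2 ratio 1.05). The most abundant ion carrier, the sodium bicarbonate cotransporter Slc4a4, stayed near 0, with log2 ratios of -0.31 in HFD livers and -0.30 in db livers.

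Of the families with many members known from membranes inside the cell, 0 of 13 genes passed 2-fold in HFD livers. In db livers 1 of 12 was higher and 1 lower. Over all tested genes 6.66% were higher and 2.46% lower in HFD livers, and 7.36% and 4.68% in db livers. Slc17a1, whose product carries phosphate and urate and is also known at the surface of kidney cells, had 1.89 FPKM in db livers against 0.343 FPKM in misty livers (log2 ratio 2.16). Its log2 ratio in HFD livers, -0.096, was read from another transcript. Its neighbours Slc17a2 and Slc17a3 had log2 ratios of 0.31 and 0.38 in db livers. Slc35a4, a gene of the nucleotide sugar carrier family, had 0.458 FPKM in db livers and 1.10 FPKM in misty livers (log2 ratio -1.10).

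**Figure D3:**
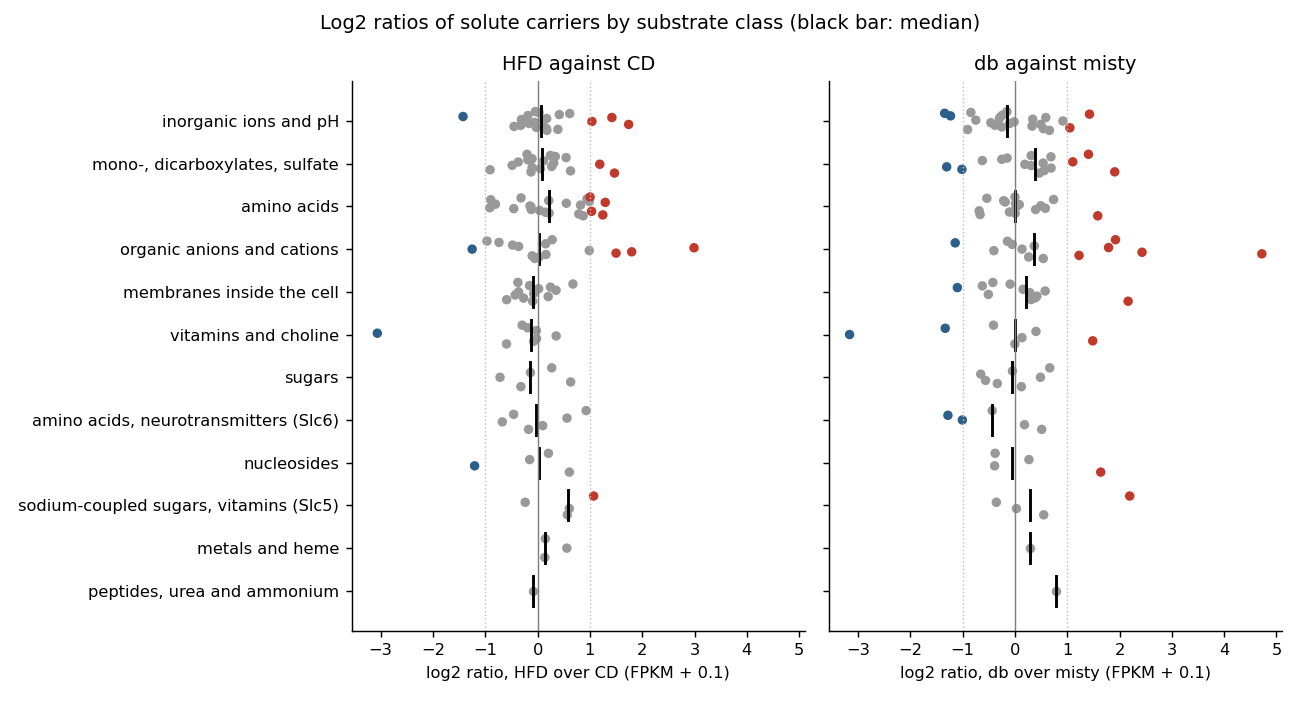
Log2 ratios of FPKM + 0.1 of all solute carriers by substrate class, HFD over CD (left, 119 genes) and db over misty (right, 109 genes), with 1 point per gene, red for at least 2-fold higher, blue for at least 2-fold lower and a black bar at each class median. Points of most classes gather around 0, sugar carriers have no coloured point in either panel, and organic anion and cation carriers reach furthest to the right.

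The other genes past 2-fold, singled out after their values were seen, did not reach 1 FPKM in either group. In HFD livers Slc22a21, a carnitine carrier of the mouse, was higher (0.384 FPKM, against 0.0712 FPKM in CD livers), as was Slc24a3, a potassium-dependent sodium-calcium exchanger (0.947 FPKM, against 0.213 FPKM in CD livers), and Slc8a3, the exchanger NCX3, was lower (0.0476 FPKM, against 0.297 FPKM in CD livers). In db livers Slc28a1, a nucleoside carrier, had 0.212 FPKM and was listed at 0 in misty livers. Slc16a11, a monocarboxylate family member, had 0.109 FPKM in db livers and 0.416 FPKM in misty livers, and Slc46a3, a lysosomal carrier, 0.0736 FPKM in db livers and 0.338 FPKM in misty livers. Differences at such levels rest on few fragments, and how many is unknown because the tables give no counts.

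Of the 97 genes tested in both tables, 12, or 12.4%, were at least 1.5-fold apart in the same direction in both models, against 7.06% of the 7933 genes tested in both. The 7 genes higher in both were Slc13a3, Slc41a2, Slc1a4, Slc22a26, Slc7a4, Slc5a6 and Slc22a27, and the 5 lower in both were Slc16a1, Slc22a5, Slc44a3, Slc6a21 and Slc8a3. At 2-fold in both tables the count was 6, or 6.19%, against 201 of all genes, or 2.53%. Another 2 of the 97 went in opposite directions by at least 1.5-fold, a share close to that of all genes, 150 of 7933 or 1.89%. Slc1a5, the glutamine carrier ASCT2, had log2 ratios of 0.79 in HFD livers and -0.67 in db livers, and Slc9a7, the exchanger NHE7 of the Golgi apparatus, had 0.61 and -1.34 in the same order. Across the 97 genes the 2 ratios had a Pearson correlation of 0.475 and a Spearman correlation of 0.35, against 0.379 and 0.297 across all genes tested in both tables. Both are descriptions across genes that share 1 annotation and 1 processing, and 12 of the 97 genes were read from different transcripts in the 2 tables.

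**Figure D4:**
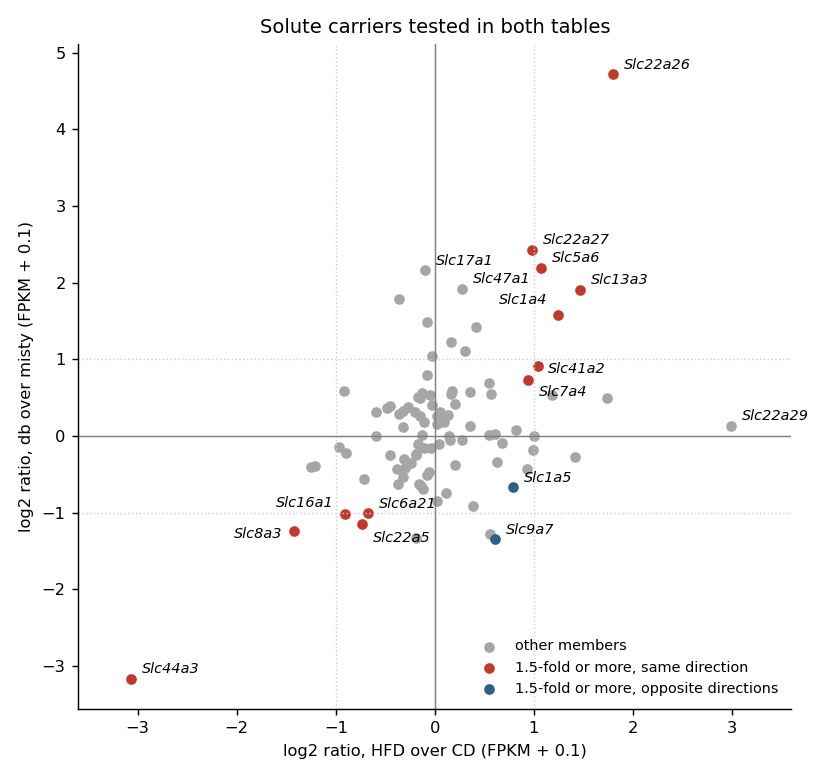
Log2 ratio of HFD over CD (x axis) against log2 ratio of db over misty (y axis), both of FPKM + 0.1, for the 97 solute carriers tested in both tables, with 1 point per gene, dotted lines at 2-fold, red for 12 genes at least 1.5-fold apart in the same direction and blue for 2 in opposite directions. Slc22a26 lies at 1.80 and 4.72, Slc44a3 at the opposite corner, and Slc47a1 and Slc17a1 are high on the y axis only. Slc17a1 and Slc44a3 were read from different transcripts in the 2 tables.

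Other genes of membrane transport were read from lists. Beside their counts, 6.66% of all tested genes were at least 2-fold higher and 2.46% lower in HFD livers, and 7.36% and 4.68% in db livers. Of the organic anion transporting polypeptides, which work beside the Slc22 carriers at the sinusoidal membrane, 0 of 5 tested genes were at least 2-fold higher and 1 lower in HFD livers, and 1 higher and 1 lower of 6 in db livers. Slco1a1 was the lower gene in both, with 0.42 FPKM in HFD livers against 10.5 FPKM in CD livers and 0.16 FPKM in db livers against 2.67 FPKM in misty livers. Slco1a4 was higher in db livers, with 4.30 FPKM against 0.90 FPKM in misty livers. Of the ABC efflux pumps, 1 of 6 was higher and 0 lower in HFD livers, and 2 of 8 higher and 1 lower in db livers. The higher 2 in db livers were Abcc4 and Abcc3, pumps of the sinusoidal membrane, with log2 ratios of 2.05 and 1.28. The lower 1 was Abcb4, with 2.36 FPKM in db livers against 5.57 FPKM in misty livers (log2 ratio -1.20). In the diet table Abcb4 had 109 FPKM in HFD livers and 146 FPKM in CD livers (log2 ratio -0.42). The transcripts read in the 2 tables were not compared for these lists, so the db ratio of Abcb4 is uncertain. Of the sodium pump subunits, 0 of 5 passed 2-fold in HFD livers, and Atp1b1 was the only one of 4 in db livers, with 0.79 FPKM against 2.29 FPKM in misty livers. The same limit applies to Atp1b1, which had 11.8 FPKM in HFD livers and 11.1 FPKM in CD livers. Of the ancillary subunits and scaffolds, 1 of 4 genes was higher in HFD livers and 1 of 3 in db livers, with 0 lower in either.

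Marker genes of other cell types differed in the diet comparison, where 6.66% of all tested genes were at least 2-fold higher and 2.46% lower. Of 11 tested macrophage and monocyte markers, 8 were at least 2-fold higher in HFD livers, and their summed level was 103 FPKM in HFD livers and 44.1 FPKM in CD livers. Neutrophil markers (3 of 3) and lymphocyte markers (5 of 9) were also at least 2-fold higher. Of 4 cholangiocyte markers, only Spp1 was (log2 ratio 2.16), and the others lay within 2-fold. In the same livers 0 of 7 hepatocyte markers were higher and 1 was lower. In db livers 0 of 7 macrophage markers were higher and 1 was lower, with sums of 27.1 FPKM in db livers and 30.0 FPKM in misty livers. The part of these cell types in the values of the 13 solute carriers higher in HFD livers was not tested. Kidney markers had no tested gene in either table. Hepatocyte markers summed to 13058 FPKM in HFD livers and 19699 FPKM in CD livers, and to 10160 FPKM in db livers and 15153 FPKM in misty livers. These sums rest on a few very abundant genes. Fabp1 had log2 ratios of -1.16 in HFD livers and -1.36 in db livers, and Apoa1 -0.99 and -1.54. Serpina1c and Hpx were higher in HFD livers (0.31 and 0.22), and Apoa2 and Ttr in db livers (0.52 and 2.09). Ttr stood at only 3.15 FPKM in db livers and 0.664 FPKM in misty livers, though at 2767 FPKM in HFD livers and 3053 FPKM in CD livers. Its ratio in db livers is therefore uncertain. Of the 8 hepatocyte markers tested in the db table, 1, the uncertain Ttr, was at least 2-fold higher and 2 lower, against 7.36% and 4.68% of all genes. The albumin gene Alb, looked up after its value was seen, is listed at 0 in all 4 groups, so a value of 0 in these tables can be a failed estimate. A further 122 listed members in the diet table and 132 in the db table were not tested, and 0 of them reached 1 FPKM.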

How the data were processed

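Livers of 12 mice in 4 groups of 3 were sequenced as ribosomal RNA-depleted, strand-specific libraries per the labels. According to the study's methods and processing notes, reads were cleaned of ribosomal sequence with Bowtie2 2.2.9, aligned with STAR 2.6.0c to GRCm38 (mm10) and quantified with Cufflinks 2.2.1 and Cuffdiff. The deposited tables give FPKM values as the authors' pooled estimate per transcript and group, with no counts per liver, so depth is unknown and no test, SD or interval was computed. Their columns of fold change, test statistic, p and q hold the authors' own comparison and were not used, except that the authors' status flag defined tested transcripts. Labels and methods differ on library kit and sequencer.

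For each gene the tested transcript with the highest mean FPKM was kept, and log2 ratios of FPKM + 0.1 were computed in Python 3.11.15 with pandas 2.3.3 and numpy 2.4.6. The code was tested on simulated data. Genes named are those past 2-fold whose higher group reached 1 FPKM, up to 14 per direction, the 10 most abundant, the most abundant of each class, and those past 1.5-fold in both models whose higher group reached 1 FPKM. Others are named as seen. Some genes that the rule names are not reported here. Alternatives were pseudocounts of 0.01 and 1 FPKM, a 1 FPKM minimum, sums over transcripts, coding transcripts only, centring and another fold limit. Members and lists were chosen with earlier results of these data known. Promoters came from RefSeq tables of GRCm38.p6.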

Additional observations from a re-analysis of the deposited data

Results flagged for a closer look

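Slc1a5 and Slc9a7 were at least 1.5-fold apart in both models but in opposite directions. They were 2 of the 97 members tested in both tables, a share close to that of all genes, 150 of 7933 or 1.89%. For Slc1a5 the log2 ratio of db over misty minus that of HFD over CD was -1.45, with 0.799 FPKM in db livers against 1.33 FPKM in misty livers and 0.892 FPKM in HFD livers against 0.475 FPKM in CD livers. For Slc9a7 it was -1.96, with 0.244 FPKM in db livers against 0.774 FPKM in misty livers and 0.585 FPKM in HFD livers against 0.348 FPKM in CD livers. All these values but that of Slc1a5 in misty livers were under 1 FPKM. With 1 pooled value per group, neither difference was tested.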

How the results depend on the processing

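No paired analysis was possible because each group has 1 pooled value and no value per liver, and for the same reason no liver could be left out in turn. The counts past 2-fold depended most on the pseudocount. With 1 FPKM in place of 0.1, 1 member was higher and 0 lower in HFD livers, 6 higher and 0 lower in db livers, and 6 in place of 12 shared a direction at 1.5-fold in both models. At this setting 0.84% of the members were higher in HFD livers, against 1.38% of all genes, and 5.50% in db livers, against 2.98%, while the members had no lower gene, against 0.696% of all genes in HFD livers and 1.25% in db livers. With 1 FPKM added, the higher share among members than among all genes was thus kept only for genes higher in db livers. With a minimum of 1 FPKM in the higher group, 6 members shared a direction. Under this minimum 3 were lower in db livers, or 4.76%, against 4.66% of all genes. With a limit of 1.5-fold, 26 members were higher and 14 lower in HFD livers, and 23 higher and 18 lower in db livers. The diet table had 79 of 119 members and 7414 of all 9486 genes within 1.5-fold. The db table had 68 of 109 members and 6685 of all 9173 genes within it. With a limit of 2-fold in both models, 6 shared a direction, or 6.19%, against 2.53% of all genes. The other counts stayed within 1.5 times under a pseudocount of 0.01 FPKM, sums over transcripts, coding transcripts only and centring. Restricted to members with the same transcript in both tables, a choice made after seeing the data, 10 shared a direction. No share of all genes stands beside the shared directions with 1 FPKM added, with the 1 FPKM minimum or with the same transcript. Coding transcripts only left out 3 genes lower in db livers, Slc44a3, Slc6a4 and Slc6a21.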
